A study of Mus musculus with 30 samples.

Results

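Mitochondrial ribosomal protein (MRP) genes were the 78 protein-coding mouse genes with a symbol of Mrpl or Mrps followed by a number, among 55487 genes counted. All 78 passed the filter on low counts that left 15907 genes for testing. The rule uses the symbol and no measured value, though the family was picked for description with earlier results of these data known. By the known structure of the ribosome, 26 encode proteins of the small subunit and 51 proteins of the large subunit, 46 of these 77 have a bacterial homologue and 31 are specific to mitochondria. The large subunit count includes Mrps18a and Mrps30, whose products sit in the large subunit despite their symbols. The remaining gene, Mrps36, is now known to encode a part of the oxoglutarate dehydrogenase complex and was kept in the 78 but in neither subunit list.

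RNA-sequencing was performed on C2C12 myotubes, multinucleated muscle cells formed by fusion of a mouse myoblast line. All cells were wild type (WT in the labels), came from this 1 line, and had first been differentiated for 4 days in low glucose medium with 2% horse serum. They then spent 4 more days, to a total of 8 days, in 1 of 5 conditions with 6 libraries each: medium with 2% horse serum (2% HS), medium without serum (serum deprivation, SD), SD with 100 nM metformin (MET), SD with 500 nM leucine (LEU), or SD with both at these doses (MET+LEU). Serum deprivation shrinks myotubes, and the comparisons asked how it changed transcripts and how the treatments, singly and combined, changed them in turn. No source used here says whether the 6 replicates were separate cultures, so p-values measure the spread between these libraries, which may be technical.

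Mitochondria make a small set of proteins on their own ribosomes, all of them subunits of the oxidative phosphorylation system. The ribosomal RNAs and the messages come from mitochondrial DNA, whereas every ribosomal protein is encoded in the nucleus, made in the cytosol and imported. The small subunit binds the message and decodes it, and the large subunit joins amino acids and passes the new chain out at the inner membrane. Muscle cells depend on this system because contraction draws on oxidative ATP production.

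Libraries held 12784960 to 19604103 counts, and MRP genes took 23719 to 38635 of them. Replicate 6 of MET+LEU stood apart, with mitochondrial ribosomal RNA at 7.64% of its counts (at most 0.76% in the other libraries). Ribosomal RNA other than mitochondrial was at 5.85% (at most 1.96% in the other libraries). The counts of MRP genes called in comparisons with MET+LEU are therefore also given without this replicate. The rest of MET+LEU was shifted too: mitochondrial ribosomal RNA took 0.649 to 0.76% of counts in the other 5 libraries, beside 0.281 to 0.367% in SD, 0.244 to 0.705% in MET and 0.501 to 0.71% in LEU. The part of these shares in the MRP results was not tested. The label of the cells was checked against markers: all 15 myotube markers were tested, with summed levels of 33190 to 48130 CPM, counts scaled to a common library size, over the 30 libraries. Of these markers, 6 fell in SD vs. 2% HS and 1 rose, and 7 rose in MET+LEU vs. SD. Of 5 markers of myoblasts and cycling cells, 1 fell in SD vs. 2% HS. In MET+LEU vs. SD 3 fell. The 3 fibroblast markers tested of 4 (Dpt, Lum and Pdgfra) all rose in SD vs. 2% HS, with summed levels of the 4 from 14.01 to 17.8 CPM in 2% HS and 59.3 to 71.7 CPM in SD, and none of the 3 passed the threshold in MET+LEU vs. SD. Leukocyte markers summed to at most 4.44 CPM, with Ptprc at a median of 0 in every group, endothelial markers to at most 0.77 CPM and adipocyte markers to at most 0.27 CPM. The part of these marker differences in the MRP results was not tested. Of all genes, 13.9% rose and 13.9% fell in SD vs. 2% HS, and 10.6% rose and 7.8% fell in MET+LEU vs. SD. In bulk RNA, fewer cells of a type and less RNA per cell cannot be told apart.

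The levels of MRP genes were described first. Divided by the length of their exons, the 78 genes had a median of 9.70 CPM per kb over the 5 groups. Mrps21 (39.3 CPM per kb), a small subunit protein, Mrpl12 (37.2), the stalk protein that recruits translation factors to the large subunit, and Mrpl52 (31.6), a mitochondrion-specific large subunit protein, had the highest levels. The lowest levels per kb belonged to Mrpl53 (0.713), Mrpl48 (2.09) and Mrps35 (2.22). The highest level was 55.1 times the lowest, and 70 of the 78 genes were within 10-fold of the highest. Exon length was the union over annotated isoforms, so a gene with long rare isoforms, such as Mrps35 with 8631 bases, has its level per kb understated. Of the 790 exonic bases of Mrpl53, 695 are shared with Gm42688 on the same strand. How reads that match both genes were counted is not given, so the low level of Mrpl53, and the 55.1-fold range, may partly reflect counting. The level per kb of the same gene in the 5 groups lay close together beside this range, as the plot of levels per length shows.

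**Figure D1:**
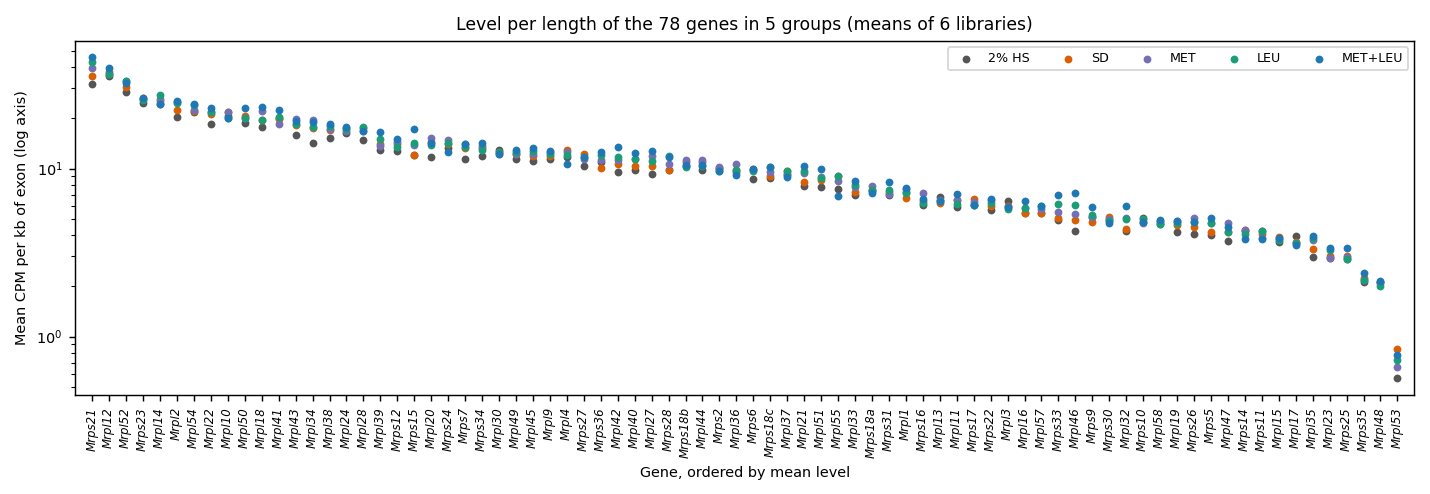
Mean level of each of the 78 MRP genes in each group, in CPM per kb of exon on a log axis, with genes ordered by their mean over the 5 groups. Mrps21 stands highest at 39.3 and Mrpl53 lowest at 0.713 CPM per kb, and the 5 group means of a gene lie near each other except where the text gives a change.

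Spread between replicates set what could be seen. The coefficient of variation of a gene within a group had a median over the members of 8.03%, from 4.76% for Mrpl15 to 41.8% for Mrpl53. Mrpl53, a stalk-associated protein with a mean of only 0.563 CPM, had library values of 0.196 to 1.36 CPM, and its log2 fold change of 0.49 ± 0.35 (SE) in SD vs. 2% HS did not pass the test (adjusted p = 0.324). A log2 fold change of the median member had a standard error of 0.07.

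The summed level of the MRP genes, in TMM-scaled CPM, was lowest in 2% HS and highest in MET+LEU. The 6 libraries of 2% HS ranged from 1819 to 1889 CPM, with a median of 1850. In SD the sum ranged from 1870 to 2062 CPM (median 1923), in MET from 1987 to 2034 (median 2003) and in LEU from 1960 to 2033 (median 1993). In MET+LEU it ranged from 2008 to 2180 CPM (median 2078). No library of MET+LEU overlapped those of 2% HS, whereas SD overlapped all the other groups and had the widest spread. SD replicates 1 and 3 were the highest of SD, at 2062 and 2025 CPM. Replicate 6 of MET+LEU, at 2078 CPM, stood in the middle of its group. The unscaled share of all counts gave in part another order. It was 0.184 to 0.1925% in 2% HS, 0.1908 to 0.2064% in SD, 0.2021 to 0.2075% in MET and 0.1969 to 0.2049% in LEU. In MET+LEU 5 libraries had 0.1961 to 0.2109%, above every 2% HS library. Replicate 6 of MET+LEU, at 0.1667%, lay below every 2% HS library. Small and large subunit genes moved together: the ratio of their sums stayed between 0.419 and 0.444 in all 30 libraries.

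**Figure D2:**
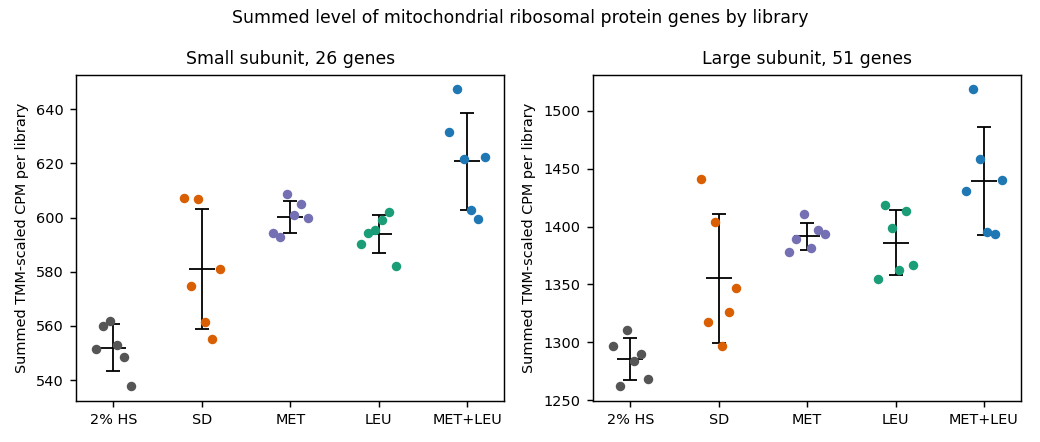
Summed TMM-scaled CPM of the 26 small subunit genes (left) and the 51 large subunit genes (right), with a point per library and the mean ± SD of 6 libraries per group; the axes do not start at 0. Small subunit sums run from 538 to 562 CPM in 2% HS and from 599 to 647 CPM in MET+LEU, with SD spread from 555 to 607 CPM between them.

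In SD vs. 2% HS a few MRP genes rose and none fell past the threshold. By the quasi-likelihood test of edgeR, with p-values adjusted by Benjamini-Hochberg across the 15907 genes, 11 of the 78 were upregulated at an adjusted p under 0.05, which is 14.1% of them beside 13.9% of all genes upregulated. No member was downregulated, where 13.9% of all genes were. At an unadjusted p under 0.05, 3 members were lower and 22 higher, beside 37.9% of all genes in either direction, and DESeq2 called 0 lower and limma-voom 1. The share upregulated was that of all genes, while the share downregulated was below it. The median log2 fold change of the 78 was 0.08, beside 0.003 over all genes, and 66 of the 78 were positive. Their changes were also narrow, with a middle range (between the lower and upper quartiles) of 0.04 to 0.15 on the log2 scale beside -0.16 to 0.13 for all genes. Of the 11 genes, 2 belong to the small subunit (Mrps27 and Mrps7) and 9 to the large subunit.

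The largest of these changes was that of Mrpl20, a large subunit protein with a bacterial homologue, which lies at chr4:155802878-155809975, plus strand (positions of genes are on GRCm38, GENCODE M21). Its libraries had 17.7, 19.5 and 21.5 CPM (lowest, median and highest) in 2% HS and 20.8, 21.6 and 29.7 CPM in SD. The groups overlapped slightly, and the SD libraries were split, with replicates 1 and 3 at 29.1 and 29.7 CPM and the rest between 20.8 and 21.7 CPM. The same replicates had the highest summed levels of SD. The log2 fold change was 0.30 ± 0.08 (SE, adjusted p = 0.00225), a rise of 22.8%. In the serum-deprived groups the medians of Mrpl20 were 25.2 CPM with MET, 22.9 with LEU and 23.6 with MET+LEU, all above the SD median, and none of these groups passed the threshold vs. SD.

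Mrpl34 (chr8:71464959-71465747, plus strand), another large subunit protein with a bacterial homologue, had 7.82, 8.55 and 9.59 CPM in 2% HS and 9.23, 10.4 and 11.9 CPM in SD. All 6 SD libraries were above the mean of 2% HS, and the ranges just overlapped. It rose by 0.29 ± 0.09 on the log2 scale (adjusted p = 0.0137). The bases before the starts of these 2 genes are shown because they head the genes raised in SD. The promoter sequences come from RefSeq (GRCm38.p6) and end 1 base before the start annotated there, at chr4:155802628-155802877 (plus strand) and chr8:71464676-71464925 (plus strand). Capitals mark an E-box in Mrpl20 and an ETS motif in Mrpl34.

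Mrpl20: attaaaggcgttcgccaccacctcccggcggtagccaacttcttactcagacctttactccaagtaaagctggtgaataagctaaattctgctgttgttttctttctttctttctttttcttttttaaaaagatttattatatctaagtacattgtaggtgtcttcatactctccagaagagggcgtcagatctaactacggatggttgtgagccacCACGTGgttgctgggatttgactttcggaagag
Mrpl34: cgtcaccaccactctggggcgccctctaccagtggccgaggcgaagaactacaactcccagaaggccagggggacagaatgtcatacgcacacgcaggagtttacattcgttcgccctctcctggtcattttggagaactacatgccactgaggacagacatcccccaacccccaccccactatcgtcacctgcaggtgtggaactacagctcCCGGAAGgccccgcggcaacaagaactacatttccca

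Mrps27, a small subunit protein of the pentatricopeptide repeat family (chr13:99344786-99415562, plus strand), was the only one of the 6 genes given in full here whose libraries did not overlap. It had 20.02, 21.8 and 22.1 CPM in 2% HS and 23.2, 25.01 and 27.7 CPM in SD. Its rise of 0.24 ± 0.06 on the log2 scale had the lowest adjusted p of any member in this comparison (0.00108). Over the whole set, 2 members had SD libraries all above those of 2% HS (Mrps27 and Mrpl19, which missed the adjusted threshold) and 0 all below, beside 6.17% and 7.42% of all genes.

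Mrpl28 (chr17:26123500-26126613, plus strand), a large subunit protein, had 18.3, 20.2 and 24.1 CPM in 2% HS and 21.1, 24.4 and 27.7 CPM in SD, and Mrps7 (chr11:115603925-115608036, plus strand), a small subunit protein at the head of that subunit, had 21.3, 22.9 and 27.5 CPM in 2% HS and 22.5, 28.2 and 32.0 CPM in SD. Their log2 fold changes were 0.24 ± 0.07 (adjusted p = 0.00707) and 0.22 ± 0.07 (adjusted p = 0.0192), with overlapping groups. Exons of Mrps7 share 127 bases with Gga3 and some with Mif4gd on the other strand. The libraries were stranded, but the strand setting of the count is not given in the sources used here, so reads of such partners may have been counted together. The other genes that passed the threshold were Mrpl55, described with the combined treatment, Mrpl22 (0.21), Mrpl43 (0.21), Mrpl47 (0.18), Mrpl38 (0.16) and Mrpl50 (0.13). Mrpl22 and Mrpl47 sit around the exit of the polypeptide tunnel. Without SD replicate 3 the number upregulated fell to 6, and without SD replicate 6 or 2% HS replicate 4 to 7, while 1 member was downregulated without SD replicate 1. The calls on Mrpl22 and Mrpl47 were lost in 24 and 27 of 42 alternatives.

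Almost none of these genes passed the threshold with MET or LEU alone relative to SD. With MET, 0 of the 78 passed the threshold by edgeR, DESeq2 or limma-voom, where 0.157% of all genes did by edgeR. At an unadjusted p under 0.05, 13 members were higher and 0 lower, beside 10.0% of all genes in either direction. The median log2 fold change was 0.05, with 48 of 78 positive. With LEU, 1 member rose, beside 0.553% of all genes changed in either direction. This was Mrps21, at 0.26 ± 0.07 on the log2 scale (adjusted p = 0.0456). The call was fragile: it was lost without SD replicate 1, 2, 4 or 5, LEU replicate 2, 3, 4 or 6, or MET replicate 4, and 2 members were called without MET+LEU replicate 6. The median log2 fold change of the 78 with LEU was 0.03, with 44 positive.

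More of them rose in MET+LEU. Against SD, 22 of the 78 were upregulated (28.2%, beside 10.6% of all genes) and 2 downregulated (beside 7.80% of all genes). The comparison uses the same SD libraries as SD vs. 2% HS, so the 2 are not independent. The median log2 fold change was 0.09, with 54 positive and a middle range of -0.03 to 0.19. Without replicate 6 of MET+LEU, 17 were upregulated and 2 downregulated, where 7.58% of all genes were upregulated, and the median was 0.08. Fitted on the SD and MET+LEU libraries alone, 14 were upregulated. The calls on Mrpl1, Mrpl27, Mrpl35, Mrpl50 and Mrps31 were those lost without replicate 6 of MET+LEU. In all, 8 members had MET+LEU libraries all above those of SD and 0 all below, beside 3.41% and 1.93% of all genes. These 8 were Mrpl18, Mrpl32, Mrpl42, Mrpl46, Mrps15, Mrps21, Mrps33 and Mrps36.

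Mrpl46, a mitochondrion-specific protein of the central protuberance of the large subunit (chr7:78775236-78783531, minus strand), rose most. It had 6.14, 6.85 and 7.93 CPM in SD and 8.33, 9.30 and 13.9 CPM in MET+LEU, while 2% HS had 5.19, 5.69 and 7.76 CPM. LEU (7.85, 8.79 and 9.04 CPM) and MET (6.84, 7.75 and 8.36 CPM) had medians between those of SD and MET+LEU. Every library of MET+LEU was above every library of SD, and replicate 6 was the highest. The log2 fold change vs. SD was 0.54 ± 0.11 (adjusted p = 0.000302), a rise of 44.9%, and it was 0.43 without replicate 6 (adjusted p = 0.00208). Mrpl46 and the small subunit gene Mrps11 start head to head on opposite strands and share 173 exonic bases. Mrps11 changed by -0.10 ± 0.13 (adjusted p = 0.658), with 5.93, 8.82 and 10.7 CPM in SD and 5.83, 8.37 and 10.2 CPM in MET+LEU.

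Mrps15, a small subunit protein with a bacterial homologue that binds the ribosomal RNA early in assembly of bacterial ribosomes (chr4:126046925-126055532, plus strand), had the lowest adjusted p of the members. Its libraries had 18.3, 21.2 and 22.03 CPM in SD and 25.3, 28.3 and 34.1 CPM in MET+LEU. In 2% HS they had 19.8, 20.5 and 21.5 CPM, and the log2 fold change in SD vs. 2% HS was 0.004 ± 0.07 (adjusted p = 0.973). With MET it had 20.9, 22.9 and 26.9 CPM and with LEU 22.03, 23.7 and 26.2 CPM, with medians between those of SD and MET+LEU. The rise in MET+LEU vs. SD was 0.50 ± 0.07 on the log2 scale (adjusted p = 8.6e-07), and 0.44 without replicate 6. Its promoter, at chr4:126046678-126046927 (plus strand) (GRCm38.p6), is shown as that of the small subunit gene with the firmest rise, and these bases held none of the 4 motifs searched. That of Mrpl46 is not shown because the window runs into transcribed bases of Mrps11.

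Mrps15: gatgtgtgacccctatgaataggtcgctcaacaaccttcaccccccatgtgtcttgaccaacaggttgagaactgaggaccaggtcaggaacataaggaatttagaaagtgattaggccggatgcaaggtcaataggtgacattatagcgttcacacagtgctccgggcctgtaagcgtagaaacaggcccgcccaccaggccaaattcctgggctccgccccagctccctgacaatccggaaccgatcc

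Mrps21 (chr3:95862634-95871519, minus strand), a small subunit protein with a bacterial homologue and the member with the highest level per length, stepped up across the groups. The medians were 22.7 CPM (2% HS), 25.5 CPM (SD), 30.1 CPM (MET), 31.0 CPM (LEU) and 34.6 CPM (MET+LEU). SD ranged from 24.2 to 30.3 CPM and MET+LEU from 32.2 to 35.5 CPM, without overlap, while each pair of neighbours in this order overlapped. Mrps21 rose by 0.37 ± 0.07 on the log2 scale in MET+LEU vs. SD (adjusted p = 6.53e-05), and by 0.37 without replicate 6.

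Mrps33, a mitochondrion-specific protein of the small subunit (chr6:39801804-39810988, minus strand), had 6.46, 8.74 and 10.0 CPM in SD and 10.1, 11.7 and 13.4 CPM in MET+LEU, and rose by 0.44 ± 0.10 (adjusted p = 0.00124), and by 0.42 without replicate 6. Mrpl32 (chr13:14608184-14613165, minus strand), a large subunit protein whose cleavage by a protease of the inner membrane is a step of ribosome assembly, had 20.3, 21.6 and 24.04 CPM in SD and 27.2, 28.3 and 37.8 CPM in MET+LEU. It rose by 0.43 ± 0.07 (adjusted p = 8.51e-06). The highest library, replicate 6, was far from the other 5, which lay between 27.2 and 28.9 CPM, and the log2 fold change was 0.35 without it (adjusted p = 2e-05).

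Mrpl55 went the other way. This large subunit protein (chr11:59202486-59206134, plus strand) had 7.09, 7.62 and 8.75 CPM in 2% HS, 8.00, 8.90 and 10.95 CPM in SD and 6.25, 6.81 and 8.52 CPM in MET+LEU. It rose in SD vs. 2% HS (0.26 ± 0.10, adjusted p = 0.0461) and fell in MET+LEU vs. SD (-0.39 ± 0.10, adjusted p = 0.00421), and MET+LEU vs. 2% HS did not pass the threshold (-0.13 ± 0.10, adjusted p = 0.306). Both changes use the same SD libraries, of which the highest were near 11 CPM. The call on the rise in SD was lost in 19 of 42 alternatives, with an adjusted p of up to 0.152 (without SD replicate 3), and that on the fall in MET+LEU vs. SD in 0. Without MET+LEU replicate 6 the fall was -0.38 (adjusted p = 0.00807). Mrpl4, which lines the exit tunnel, was the other member that fell in MET+LEU vs. SD, from a median of 33.0 CPM to 29 CPM (-0.28 ± 0.08, adjusted p = 0.00675). Replicate 6, at 19.3 CPM, was its lowest library, and the change was -0.21 without it (adjusted p = 0.0151).

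**Figure D3:**
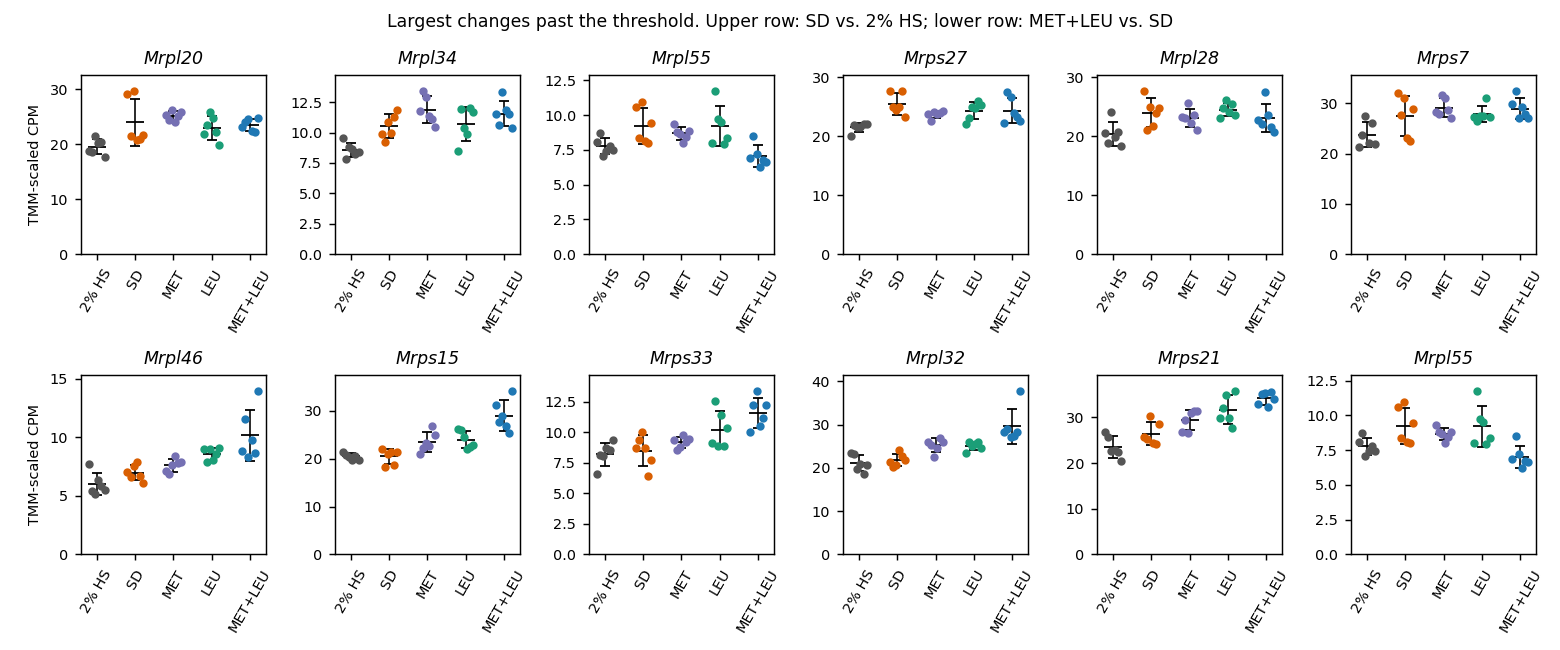
TMM-scaled CPM of the 6 MRP genes with the largest changes past the threshold in SD vs. 2% HS (upper row) and MET+LEU vs. SD (lower row), with a point per library and the mean ± SD of 6 libraries per group; Mrpl55 is in both rows. Mrps15 runs from 18.3 to 22.03 CPM in SD and from 25.3 to 34.1 CPM in MET+LEU, and Mrpl55 is the only gene of the lower row that is lower in MET+LEU than in SD.

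Other members raised in MET+LEU vs. SD changed by 0.16 to 0.33 on the log2 scale. In order of size, the rest of the 15 largest were Mrpl42 (0.33), Mrpl27 (0.31), Mrps36 (0.31), Mrpl21 (0.30), Mrps9 (0.29), Mrps5 (0.28), Mrpl40 (0.27), Mrpl35 (0.26), Mrpl18 (0.25) and Mrpl39 (0.24). By place in the ribosome, 6 of 26 small subunit genes and 15 of 51 large subunit genes were upregulated, and 12 of 46 genes with a bacterial homologue and 9 of 31 mitochondrion-specific genes. Among the 8 genes of the central protuberance, which touches the tRNAs and the small subunit, 4 were upregulated (Mrpl46, Mrpl27, Mrpl40 and Mrpl18) and Mrpl55 was downregulated. None of the 5 stalk genes (Mrpl10, Mrpl11, Mrpl12, Mrpl53 and Mrpl54) passed the threshold, and of the 6 around the polypeptide exit Mrpl45 did. Mrpl45 anchors the ribosome to the inner membrane, and it had 28.6, 29.8 and 34.9 CPM in SD and 31.5, 34.7 and 37.0 CPM in MET+LEU (0.18 ± 0.06, adjusted p = 0.0309).

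**Figure D4:**
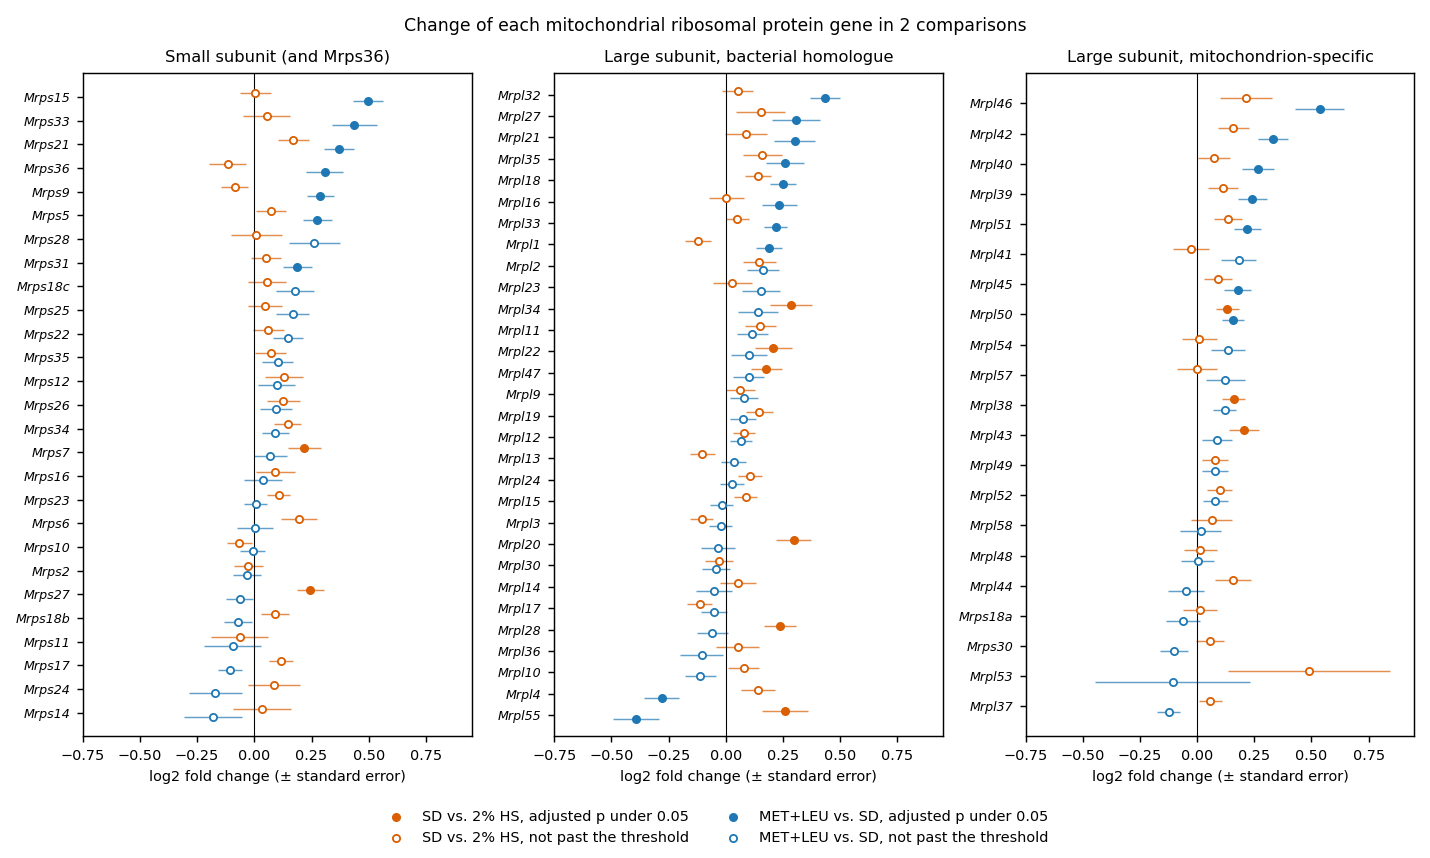
Log2 fold change ± standard error of each MRP gene in SD vs. 2% HS (orange) and MET+LEU vs. SD (blue), filled where the adjusted p was under 0.05, with genes in 3 panels by subunit, ordered within each by the change in MET+LEU vs. SD. Blue filled points reach from 0.16 (Mrpl50) to 0.54 (Mrpl46) on the higher side, and on the lower side are Mrpl4 and Mrpl55; the 11 orange filled points all lie above 0.

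Against 2% HS, both steps together were read in MET+LEU. Here 46 of the 78 were upregulated (59.0%, beside 22.1% of all genes) and 2 downregulated (beside 20.3% of all genes), with a median log2 fold change of 0.19 and 62 positive. Without replicate 6, 42 were upregulated and 1 downregulated, where 20% of all genes were upregulated. In 23 members all MET+LEU libraries were above all 2% HS libraries and in 1 all below, beside 11.5% and 9.51% of all genes. The largest rises were those of Mrpl46 (0.75 ± 0.11, adjusted p = 2.02e-07), Mrps21 (0.54 ± 0.07, adjusted p = 4.47e-09) and Mrps15 (0.50 ± 0.07, adjusted p = 2.89e-08). Below them came Mrps33 (0.49), Mrpl42 (0.49), Mrpl32 (0.49), Mrpl27 (0.46), Mrpl34 (0.43), Mrpl35 (0.42), Mrpl18 (0.39), Mrpl21 (0.39), Mrpl39 (0.36), Mrpl51 (0.35), Mrps5 (0.35) and Mrpl40 (0.34). Only 3 members changed by 0.5 or more on the log2 scale.

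The 2 members below 2% HS were Mrpl17 and Mrpl3, both large subunit proteins. Mrpl17 had 28.9, 29.7 and 31.8 CPM in 2% HS and 23.3, 27.3 and 28.3 CPM in MET+LEU, without overlap (-0.17 ± 0.06, adjusted p = 0.0131). Mrpl3 had 39.9, 42.1 and 46.6 CPM in 2% HS and 36.2, 39.3 and 41.7 CPM in MET+LEU (-0.13 ± 0.05, adjusted p = 0.0346), and its call was lost without MET+LEU replicate 6 (adjusted p = 0.0617) or 2% HS replicate 5 or 6.

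Of the 46 upregulated genes, 10 had also been upregulated in SD vs. 2% HS, 21 in MET+LEU vs. SD and 16 in neither. Mrpl50, a mitochondrion-specific large subunit protein, was the only member upregulated in both steps, from a median of 40.4 CPM in 2% HS to 42.7 in SD and 48.0 in MET+LEU. The log2 fold changes of the steps were 0.13 ± 0.05 (adjusted p = 0.0423) and 0.16 ± 0.05 (adjusted p = 0.021), and the calls were lost in 13 and 9 of 42 alternatives. With MET+LEU replicate 6 left out the second step had an adjusted p of 0.0727, and with the replicate block and GC offset 0.242. Both log2 fold changes were positive in 48 of the 78 members. These counts share the SD libraries with opposite signs and are given as a description. The change in MET+LEU vs. 2% HS is also the sum of the 2 steps. The same counts were not made over all genes, so they are not read as a trait of this family.

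**Figure D5:**
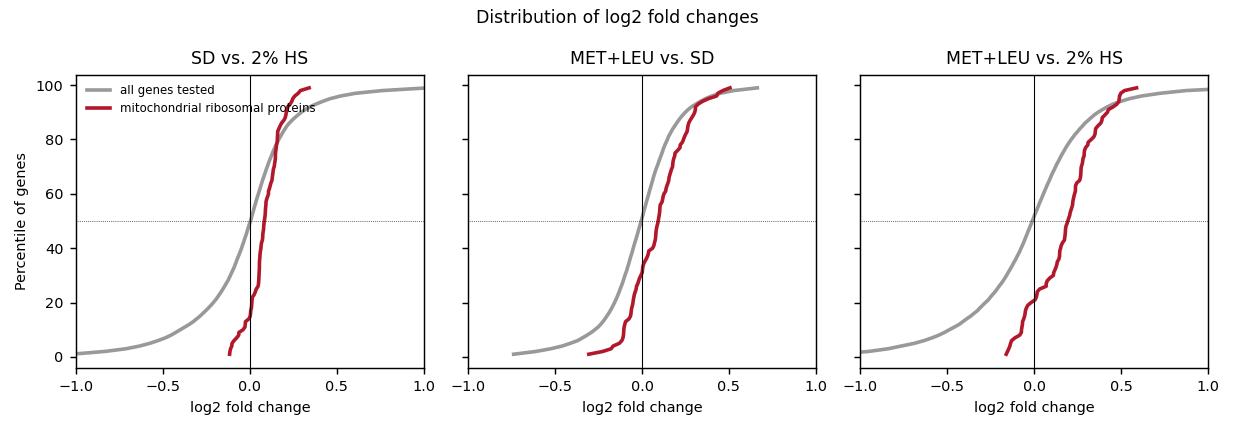
Percentiles 1 to 99 of the log2 fold changes of the 78 MRP genes (red) and of all 15907 genes tested (grey) in 3 comparisons; a few values of all genes lie beyond the axes. The median of the MRP genes is at 0.08 in SD vs. 2% HS, 0.09 in MET+LEU vs. SD and 0.19 in MET+LEU vs. 2% HS, while that of all genes is within 0.02 of 0.

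The combination was also compared with each agent. In MET+LEU vs. MET, 11 members were upregulated (beside 5.54% of all genes) and 1 downregulated (beside 3.15%). The 10 largest changes were those of Mrpl46 (0.41 ± 0.11, adjusted p = 0.0094), Mrps33 (0.33), Mrps15 (0.30), Mrpl39 (0.28), Mrpl41 (0.28), Mrpl42 (0.24), Mrps31 (0.23), Mrpl4 (-0.23), Mrpl32 (0.22) and Mrps21 (0.22). Without replicate 6 of MET+LEU only 5 passed, all upregulated, where 2.65% of all genes were upregulated. Mrpl46 was not among the 5 (adjusted p = 0.063). Without MET replicate 3 the count was 6. In MET+LEU vs. LEU, 6 were upregulated (beside 4.61% of all genes) and 1 downregulated (beside 1.67%). Those raised were Mrps15 (0.27 ± 0.07, adjusted p = 0.00933), Mrpl18 (0.26), Mrpl32 (0.23), Mrps25 (0.23), Mrpl11 (0.22) and Mrpl50 (0.20), and Mrpl55 fell (-0.38 ± 0.10, adjusted p = 0.0169). The calls on Mrps25 and Mrpl11 were lost in 33 and 30 of 42 alternatives, and that on Mrpl18 in 0. Without replicate 6 of MET+LEU, 4 were upregulated and 1 downregulated, where 1.94% of all genes were upregulated. The calls on Mrpl11, Mrpl32 and Mrps25 were lost. Without LEU replicate 1, 2, 3 or 4, 4 members passed in either direction.

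Whether the effect of the combination differed from the sum of its parts was tested with an interaction term. In that test 0 members passed the threshold by edgeR, DESeq2 or limma-voom, where 0.0503% of all genes did by edgeR, and the lowest adjusted p was 0.249 (Mrpl50). The edgeR count was also 0 without replicate 6. At an unadjusted p under 0.05, 6 members were above the sum of the parts and 1 below, beside 8.73% of all genes in either direction. The median standard error of the interaction was 0.10 on the log2 scale. For Mrps15 the log2 fold changes vs. SD were 0.19 ± 0.07 with MET (adjusted p = 0.271), 0.23 ± 0.07 with LEU (adjusted p = 0.123) and 0.50 ± 0.07 with both, and the interaction was 0.08 ± 0.09 (adjusted p = 0.868). For Mrpl46 they were 0.12 ± 0.11, 0.29 ± 0.11 and 0.54 ± 0.11, with an interaction of 0.12 ± 0.15 (adjusted p = 0.87).

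Members with a known special role were followed whatever their values. Mrps12, which forms part of the decoding site, had medians of 12.9 CPM in 2% HS, 14.4 in SD and 15.1 in MET+LEU, and passed the threshold only in MET+LEU vs. 2% HS (0.23 ± 0.08, adjusted p = 0.0232). The same held for Mrpl12, the stalk protein, with medians of 54.4, 56.4 and 59.3 CPM (0.15 ± 0.05, adjusted p = 0.0117 in MET+LEU vs. 2% HS), though not without replicate 6 (adjusted p = 0.0549). Mrpl58, a peptidyl-tRNA hydrolase built into the large subunit that frees stalled ribosomes, passed in none of the 8 comparisons, with medians from 15.8 to 16.5 CPM in the 5 groups. Mrps30 also passed in none, with medians from 31.0 to 33.7 CPM. Of the 3 Mrps18 paralogs, which occupy different places in the ribosome, Mrps18c rose in MET+LEU vs. 2% HS (0.23 ± 0.08, adjusted p = 0.0208), where Mrps18a had -0.05 ± 0.07 (adjusted p = 0.614) and Mrps18b 0.02 ± 0.06 (adjusted p = 0.83). Their medians in MET+LEU were 10.9, 27.1 and 22.4 CPM for Mrps18c, Mrps18a and Mrps18b, values that are not corrected for length. Mrps36 rose in MET+LEU vs. SD, from 11.4 to 14.1 CPM in the SD libraries to 14.2 to 17.9 CPM (0.31 ± 0.08, adjusted p = 0.00457), while its call in MET+LEU vs. 2% HS (0.19, adjusted p = 0.0462) was lost in 33 of 42 alternatives.

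Ribosome proteins without an Mrp symbol formed a list of 5. Chchd1 (0.42 ± 0.09, adjusted p = 0.000193) and Gadd45gip1 (0.20 ± 0.05, adjusted p = 0.00128) rose in SD vs. 2% HS. Chchd1 went from a median of 14.5 CPM in 2% HS to 18.2 CPM in SD, without overlap. Aurkaip1 rose in MET+LEU vs. SD (0.21 ± 0.05, adjusted p = 0.00369), and Dap3 and Ptcd3 passed in neither comparison. The RNAs of this ribosome rose in MET+LEU vs. SD: mt-Rnr1, the small subunit RNA, by 2.61 ± 0.53 and mt-Rnr2, the large subunit RNA, by 3.00 ± 0.57 on the log2 scale (adjusted p = 0.000939 and 0.000519). Replicate 6 carried much of that size. In it mt-Rnr1 stood at 52730 CPM, where the median of MET+LEU was 4506 CPM and that of SD 2026 CPM, and without it the rises were 1.0998 ± 0.20 and 1.23 ± 0.17 (adjusted p = 0.000528 and 1.19e-05). Summed over both RNAs, the medians were 2694 CPM in 2% HS, 3202 in SD, 5361 with MET, 5843 with LEU and 7253 with MET+LEU. The MET libraries were spread from 2364 to 7009 CPM. The libraries were depleted of ribosomal RNA, so these levels also hold what the depletion left behind, whose part in the rise was not tested.

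The other machinery of mitochondrial gene expression was taken list by list. For these lists and those below, the shares of all genes were 13.9% upregulated and 13.9% downregulated in SD vs. 2% HS. In MET+LEU vs. SD they were 10.6% and 7.8%. Of 15 genes listed as translation factors 14 were tested, and 1 rose and 3 fell in SD vs. 2% HS. Tufm, the elongation factor that delivers tRNA, rose (0.18 ± 0.06), and Mss51 (-0.31 ± 0.07), Gfm1 (-0.16 ± 0.04) and Gfm2 (-0.11 ± 0.04) fell. Whether Mss51 acts in this translation in mouse cells was not examined. In MET+LEU vs. SD 2 rose, the initiation factor Mtif2 (0.16 ± 0.05) and Gfm1 (0.11 ± 0.04). Of 27 assembly and rRNA modification factors, 1 rose and 2 fell in SD vs. 2% HS (Mrm3 0.22, Mettl15 -0.40, Dhx30 -0.15) and 1 rose and 1 fell in MET+LEU vs. SD (Rbfa 0.21, Nsun4 -0.16). Their median log2 fold changes were 0.02 and -0.01. Of 17 mitochondrial aminoacyl-tRNA synthetases none passed in SD vs. 2% HS. Lars2 (2.05 ± 0.37) and Rars2 (0.21 ± 0.06) rose and Ears2 (-0.23 ± 0.08) and Vars2 (-0.22 ± 0.07) fell in MET+LEU vs. SD. Lars2 rose by 1.70 without replicate 6. The summed level of these synthetases had medians of 512 CPM in SD, 501 with MET, 592 with LEU and 857 with MET+LEU. Its MET+LEU libraries were spread from 686 to 1741 CPM. The part of leftover ribosomal RNA in the rise of Lars2 was not tested. Of 10 genes of mitochondrial transcription and message stability, Lrpprc fell in SD vs. 2% HS (-0.22 ± 0.04). Tfb2m (0.26 ± 0.05) and Pnpt1 (0.23 ± 0.06) rose and Polrmt (-0.15 ± 0.05) fell in MET+LEU vs. SD. Whether these lists differ from the MRP genes was not tested.

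Nuclear regulators known to act on mitochondrial genes were a list of 10. In SD vs. 2% HS, Ppargc1a, a coactivator of mitochondrial biogenesis, fell from 7.39, 8.59 and 10.2 CPM to 3.52, 3.96 and 4.06 CPM (-1.14 ± 0.13, adjusted p = 3.14e-10), Ppargc1b fell by 0.31 ± 0.05, Gabpa and Gabpb2 each fell by 0.13, and Yy1 rose by 0.13 ± 0.04. In MET+LEU vs. SD, Gabpa, an ETS factor, rose by 0.24 ± 0.05 (adjusted p = 0.000557), and by 0.19 without replicate 6, and Pprc1 fell by 0.13 ± 0.04. Ppargc1a did not pass the threshold in MET+LEU vs. SD. Its medians were 3.39 CPM (MET), 3.58 CPM (LEU) and 4.46 CPM (MET+LEU).

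Other lists of translation and respiration genes were set beside the MRP genes. Of 83 cytosolic ribosomal protein genes tested, 10 rose and 2 fell in SD vs. 2% HS (median 0.09), and 31 rose and 1 fell in MET+LEU vs. SD (median 0.13). Of 80 nuclear oxidative phosphorylation genes, 6 rose and 1 fell in SD vs. 2% HS (median 0.06), and 25 rose and 2 fell in MET+LEU vs. SD (median 0.09). Without replicate 6, 31 of the former rose and 0 fell and 25 of the latter rose and 0 fell, where 7.58% of all genes rose. In share, 37.3% of the cytosolic ribosomal protein genes and 31.2% of the oxidative phosphorylation genes rose in MET+LEU vs. SD, beside 28.2% of the MRP genes and 10.6% of all genes. In SD vs. 2% HS, 13.9% of all genes rose. Of the 13 mitochondrial messages, which these ribosomes translate, mt-Nd4l rose in SD vs. 2% HS and 7 rose in MET+LEU vs. SD, among them mt-Nd2 (0.97 ± 0.19) and mt-Nd5 (0.84 ± 0.18). Without replicate 6 the 7 became 6 and the median of the 13 went from 0.58 to 0.21.

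Genes of this family lie scattered in the genome, on 17 chromosomes, with 11 on chromosome 11 and 8 on chromosome 17. Of the 78, 33 (42.3%) have another protein-coding gene that starts within 1000 bases on the opposite strand, beside 10.8% of protein-coding genes. Starts on either side were counted, so the set also holds pairs that overlap at their starts, such as Mrpl48 and Rab6a. In MET+LEU vs. SD, 9 pairs with both genes tested had the MRP gene upregulated, and the partner rose in 1 (Tcp1, beside Mrpl18, 0.16 ± 0.03) and fell in 1 (Ncapd2, beside Mrpl51, -0.44 ± 0.06). In SD vs. 2% HS it rose in 1 of 5 (Zfp189, beside Mrpl50, 0.25 ± 0.09). Exons of 28 members share bases with a gene on the other strand and those of 8 with a gene on the same strand. Annotated pseudogenes drew at most 64 counts over the 30 libraries, except Mrpl48-ps with 1089. Mrpl48 itself had a mean of 17.06 CPM. How reads that match both were counted is not given, so the level of Mrpl48 may partly reflect counting.

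Promoters were searched on both strands for 4 motifs: GCATGCGC, most of the site of NRF1, CCGGAAG, an ETS site, AAGATGGC, a YY1 site, and CACGTG, an E-box. The ETS motif ends and the YY1 motif begins with the same letters, so a stretch can hold both. The windows ran from 250 bases before to 50 bases after each RefSeq start, and sequences were found for 69 members, with 75 promoters, and 21263 promoters of protein-coding genes stood for the whole. The ETS motif was in 34.7% of the members' promoters beside 11.6% of all, the YY1 motif in 16% beside 3.05% and the NRF1 motif in 10.7% beside 3.52%. The E-box was in 9.33% beside 7.84%. These are matches of letters, and no binding was measured.

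Composition was looked at last. The members had a median exonic length of 2394 bases beside 3495 bases for protein-coding genes and a median GC content of 49.8% beside 48.7%. The 22 members upregulated in MET+LEU vs. SD had a median GC content of 46.8%, beside 50.4% in those not called. In SD vs. 2% HS the direction was opposite, at 52.2% beside 49.4%. Across the 78 genes, which share libraries and are not independent, the log2 fold change had a Spearman rho with GC content of 0.35 (SD vs. 2% HS) or -0.15 (MET+LEU vs. SD), and with exonic length of -0.38 or -0.07. With an offset for GC content, 17 of the calls on members over the comparisons lost significance and 86 did not.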

How the data were processed

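Whole-number counts per Ensembl gene were deposited by the authors for all 30 libraries in 1 table, made from stranded, rRNA-depleted total RNA. The submitters' processing notes name GRCm38, STAR 2.7.6a, cutadapt 1.16, featureCounts 1.6.3 and DESeq2 1.30.1. The annotation release, strand setting and treatment of reads with several matches are not given in the sources used here. Symbols and positions came from GENCODE M21, which matched 55227 of 55487 IDs; the 260 others held 0.00434% of counts.

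Counts were fitted in edgeR 4.0.16 (R 4.3.3) with filterByExpr (minimum count 10), TMM scaling, 1 term per group, all 30 libraries and the robust quasi-likelihood test. P-values were adjusted by Benjamini-Hochberg over 15907 genes, at a threshold of 0.05. CPM values are TMM-scaled. A count of 0 would allow up to 3 counts; intervals of this kind cover counting error only. No pair of replicates agreed within sampling noise. The fit was tested on simulated data.

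The members, gene lists and tests were chosen with earlier results of these data known. Members past the threshold were named up to 15 in each direction in SD vs. 2% HS, MET+LEU vs. SD and MET+LEU vs. 2% HS, and up to 10 in other comparisons, with library values for the 6 largest changes in the first 2, beside members with a known special role, those at the extremes of level per length, and from the other lists at most 6 genes past the threshold per comparison. Mrpl19, Mrpl17 and Mrpl3 library values, and the partner genes, were singled out after values were seen.

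Alternatives were DESeq2 (1.42.0) size factors and its Wald test, upper-quartile scaling, limma-voom (limma 3.58.1) with quality weights, 2 other filters, a non-robust fit, only the groups compared, a threshold of 0.01, a GC offset, a replicate block and each library left out. The block with a GC offset, and other lists without MET+LEU replicate 6, were added after seeing the data.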

Additional observations from a re-analysis of the deposited data

Results flagged for a closer look

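In 5 of 75 groups of 6 libraries examined, 1 library stood far from the others by Dixon's criterion, which chance alone meets in about 1 of 20 groups. Mrps27 was lowest in 2% HS replicate 1, at 20.02 CPM where the next library had 21.5 CPM. Mrps27 was also lowest in MET replicate 2, at 22.6 CPM where the next had 23.8 CPM. Mrps7 was highest in LEU replicate 5, at 31.1 CPM where the next had 27.5 CPM. Mrpl32 was highest in MET+LEU replicate 6, at 37.8 CPM where the next had 28.9 CPM. The share of counts on mitochondrial ribosomal RNA was highest in the same library, at 7.64% where the next MET+LEU library had 0.76%.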

How the results depend on the processing

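No result changed direction under any alternative. With upper-quartile scaling 7 members were upregulated in SD vs. 2% HS. With limma-voom 1 was downregulated in SD vs. 2% HS. The number downregulated in MET+LEU vs. 2% HS was 1 with limma-voom and 1 with a filter of more than 5 counts in total. Fitted on only the groups compared, MET+LEU vs. SD gave 14 upregulated and 1 downregulated, MET+LEU vs. MET 7 changed and MET+LEU vs. LEU 2 changed. The non-robust fit called 0 members in LEU vs. SD. At a threshold of 0.01, 3 members were upregulated in SD vs. 2% HS, 14 were in MET+LEU vs. SD, 0 were downregulated in MET+LEU vs. 2% HS, and 0, 4 and 3 changed in LEU vs. SD, MET+LEU vs. MET and MET+LEU vs. LEU. The replicate block with a GC offset gave 4 downregulated in MET+LEU vs. SD. Apart from the stricter threshold and fewer samples, the cause was not tested. Leaving out each library gave 6 to 13 upregulated and 0 to 1 downregulated in SD vs. 2% HS, 0 to 2 changed in LEU vs. SD, 16 to 23 upregulated and 2 to 3 downregulated in MET+LEU vs. SD, 38 to 46 and 1 to 3 in MET+LEU vs. 2% HS, 5 to 13 changed in MET+LEU vs. MET, 4 to 9 in MET+LEU vs. LEU, and 0 in MET vs. SD and in the interaction. Replicate numbers did not pair the samples: deviations of same-numbered libraries correlated with a mean r of 0.0157 (60 pairs, -0.0913 to 0.1425), beside -0.0031 for other numbers. With the replicate block 13 were upregulated in SD vs. 2% HS, 22 in MET+LEU vs. SD and 46 in MET+LEU vs. 2% HS, and 2 calls on named members were lost. Low counts limit Mrpl53 most.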
